A study of Homo sapiens with 10 samples.

Results

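The genes described here encode nucleoporins, the proteins that build the nuclear pore, together with the soluble receptors and Ran-cycle proteins that carry cargo through it. Members were chosen by gene symbol (the NUP, KPNA, IPO, XPO and TNPO series plus 11 named genes) among rows annotated as protein-coding, and 56 of the 27142 genes in the table met this rule. A further 5 symbols matched but were not annotated as protein-coding (IPO11-LRRC70, IPO5P1, IPO9-AS1, NUP210P1 and NUP50-AS1) and were left out. RNA-seq was done on total RNA of parental 697 cells, an established human pre-B acute lymphoblastic leukaemia line, in 2 libraries from cells treated with TPA and 2 from control cells. TPA (12-O-tetradecanoylphorbol-13-acetate) is a phorbol ester that activates protein kinase C, and it was used at 0.5 µg/ml. Its duration is labelled with no more than a range of 0 to 24 h, and the labels do not say what the control cells received. All cells were grown in RPMI1640 medium with fetal bovine serum. The other 6 samples of the study, ChIP-seq of CTCF and of linker histone H1 (the H1 samples from an inducible 697 line expressing FH-NAP1) and input DNA, were not analysed here. Nothing in the labels says that libraries of a group came from separate cultures, so p-values measure the spread between libraries, which may be technical. All cells are of 1 line.

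The nuclear pore is a channel through the nuclear envelope built from stacked rings of nucleoporins around a central passage filled with phenylalanine-glycine (FG) repeats. Importins bind cargo in the cytoplasm and release it in the nucleus when Ran-GTP binds them, while exportins pick up cargo together with Ran-GTP and release it once the GTP is hydrolysed. The exchange factor RCC1 sits on chromatin and the GTPase activator RANGAP1 in the cytoplasm, and this separation keeps Ran-GTP high in the nucleus. In dividing cells many of these proteins also act on the spindle, and pores are taken apart and rebuilt at each mitosis.

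Most of the transport genes were lower in TPA-treated cells. Of the 56 genes, 53 reached 1 RPKM (reads normalised for the length of the transcript and the size of the library) in at least 2 of the 4 libraries and were tested. Among these, 39 fell, 2 rose (RANBP2 and KPNA6) and 12 did not pass an adjusted p of 0.05 (limma on log2(RPKM + 1), Benjamini-Hochberg over 12159 genes). Of all genes tested, 29.8% fell and 28.4% rose under the same rule (58.2% in either direction). Falls thus outnumbered rises among the transport genes, while both directions were about as frequent among all genes. Of the 53 transport genes 24 fell 2-fold or more on this scale, against 11.5% of all genes tested, and 49 had a log2 fold change below 0, against 51.5%. TPA libraries lay below both control libraries for 47 of the 53, where 41.0% of all genes tested did so, and above both for 3, where 38.8% did so. The median log2 fold change was -0.70 over the 53 genes and -0.02 over all genes tested. Single genes ranged between -2.10 (CSE1L) and 0.97 (RANBP2). The summed level of the 56 genes was 1209 and 1249 RPKM in TPA libraries, against 2282 and 2503 RPKM in control libraries. In bulk RNA, fewer cells of a kind and less RNA per cell cannot be told apart, and RPKM gives levels only relative to the rest of each library.

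**Figure D1:**
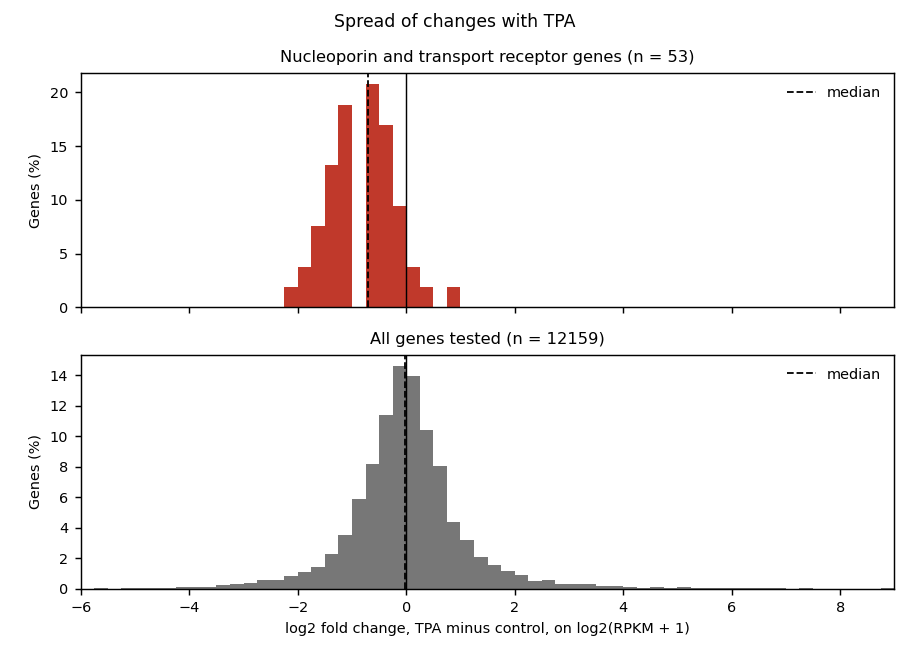
Distribution of log2 fold changes (TPA minus control, on the log2(RPKM + 1) scale) of the 53 tested transport genes above that of all 12159 genes tested. The transport genes have a median of -0.70, and all genes a median of -0.02.

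The transport genes were expressed at higher levels than most genes, with a median of 18.1 RPKM in TPA-treated cells and 31.6 RPKM in control cells, against 9.99 and 10.2 RPKM over all genes tested. Where the mean over the libraries was 10 RPKM or more, 36 of 47 transport genes and 33.75% of all 6353 genes fell. Genes with a higher level in control cells had lower log2 fold changes, with a Spearman rho of -0.499 across the 53 genes and -0.40 across all genes tested, 2 measures that share the control values. The 56 genes lie in 55 cytogenetic bands on 19 chromosomes. The difference between replicate libraries had a median of 0.134 among TPA libraries and 0.0970 among control libraries on the log2 scale, below the median change of 0.716 in either direction. The same medians over all genes tested were 0.184, 0.128 and 0.495, so the change was above the replicate difference there too. Control replicate 2 was above control replicate 1 for 44 of the 53 genes, while TPA replicate 2 was above TPA replicate 1 for 26. Over all 12159 genes tested these numbers were 7393 for the control libraries and 8889 for the TPA libraries. Where a library is left out below, its group has 1 library, assumed to vary like the other group, which alone gives the spread. Without a control library the prior degrees of freedom of the fit were also infinite, so its p-values are not set against the others, and log2 fold changes are given in their place.

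The libraries had 11449 to 11878 genes at 1 RPKM or more. Their relative depth is unknown, because the estimate made from low values kept only similar values and could not show a large difference. Markers of the B lineage were all expressed, and 4 rose while 6 fell. Of 10 such genes the summed level was 1359 and 1542 RPKM in TPA libraries, against 2150 and 2142 RPKM in control libraries. Markers of T cells (7 genes) and erythroid cells (6 genes) summed to at most 0.12 RPKM in any library, with CD3D, CD3E, TRAT1 and HBB listed at 0 in all 4. Myeloid markers (8 genes, with S100A8 and S100A9 listed at 0 in all 4) summed to 3.17 and 3.96 RPKM in TPA libraries, against 0.667 and 1.01 RPKM in control libraries. CSF1R, the macrophage colony-stimulating factor receptor, made up most of this sum and rose (2.93 and 3.66 RPKM in TPA libraries, against 0.548 and 0.706 RPKM in control libraries). Cell cycle genes were also lower in TPA-treated cells. All 19 of a list of replication and mitosis genes fell (median log2 fold change -3.12), where 29.8% of all genes tested fell. They summed to 217 and 230.0 RPKM in TPA libraries, against 2298 and 2616 RPKM in control libraries. Among them, MCM4, a subunit of the replicative helicase, had 6.46 and 6.42 RPKM in TPA libraries, against 143 and 162 RPKM in control libraries (log2 fold change -4.37). RRM2, a subunit of ribonucleotide reductase, had 2.94 and 2.87 RPKM in TPA libraries, against 79.2 and 94.3 RPKM in control libraries (log2 fold change -4.49). The part of these marker and cell cycle changes in the transport gene result was not tested.

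**Figure D2:**
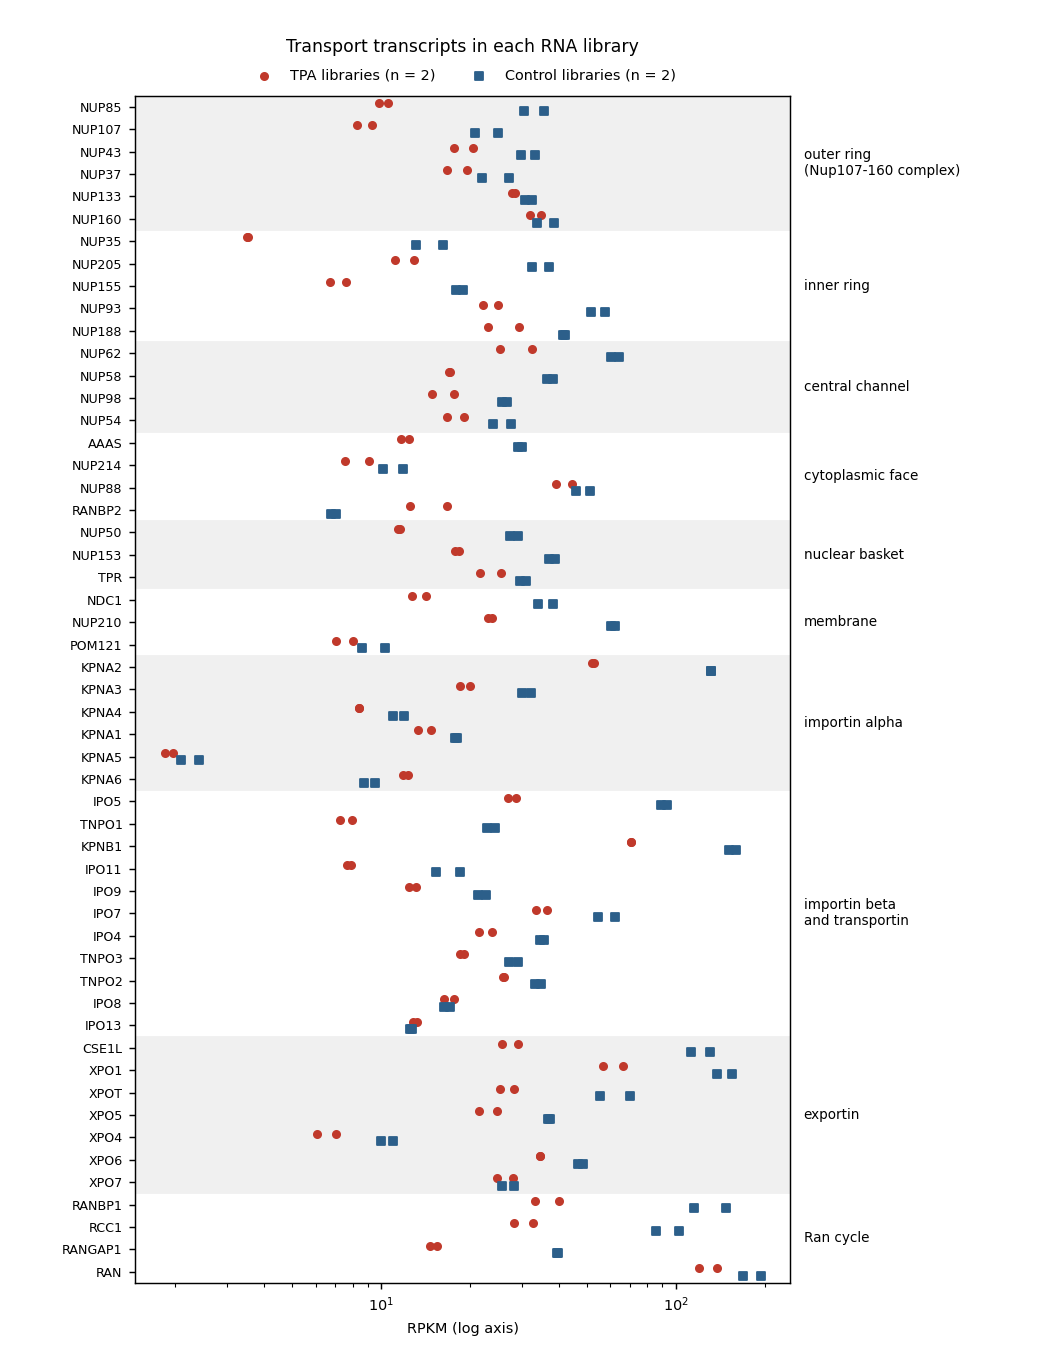
Level of each tested transport gene in each library, in RPKM on a log axis, grouped by role, with TPA libraries and control libraries as separate symbols. TPA libraries lie below both control libraries for 47 of the 53 genes, and above both for RANBP2, KPNA6 and IPO13.

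All 4 genes of the Ran cycle fell, with log2 fold changes between -1.81 and -0.49. For this and the other role groups, the background is that 29.8% of all genes tested fell. TPA libraries lay below both control libraries for 41.0% of all genes tested. RANBP1, which binds Ran-GTP and helps RANGAP1 to trigger its hydrolysis, had 33.2 and 40.2 RPKM in TPA libraries, against 115 and 148 RPKM in control libraries. Its log2 fold change was -1.81 (SE 0.171, limma adjusted p = 5.71e-05). RCC1, the only known nucleotide exchange factor of Ran, had 28.2 and 32.7 RPKM in TPA libraries, against 85.9 and 102 RPKM in control libraries (log2 fold change -1.60, SE 0.152). RANGAP1 had 15.4 and 14.7 RPKM in TPA libraries, against 39.4 and 39.7 RPKM in control libraries (log2 fold change -1.34, SE 0.128). In these 3 genes the groups lay far apart compared with the gap between replicates. RAN itself, the small GTPase, had 119.6 and 137 RPKM in TPA libraries, against 168 and 194 RPKM in control libraries. Its log2 fold change was -0.49 (SE 0.147, limma adjusted p = 0.021), and the call was lost without TPA replicate 1 (log2 fold change -0.39, limma adjusted p = 0.0873) and without the filter on low values (limma adjusted p = 0.128). Without control replicate 2 its log2 fold change was -0.39. RAN made up 60.9% and 61.1% of the summed RPKM of these 4 genes in TPA libraries, against 41.2% and 40.0% in control libraries. The ratio of RAN to RCC1 was 4.24 and 4.20 in TPA libraries, against 1.96 and 1.89 in control libraries, a pair chosen after its values were seen.

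**Figure D3:**
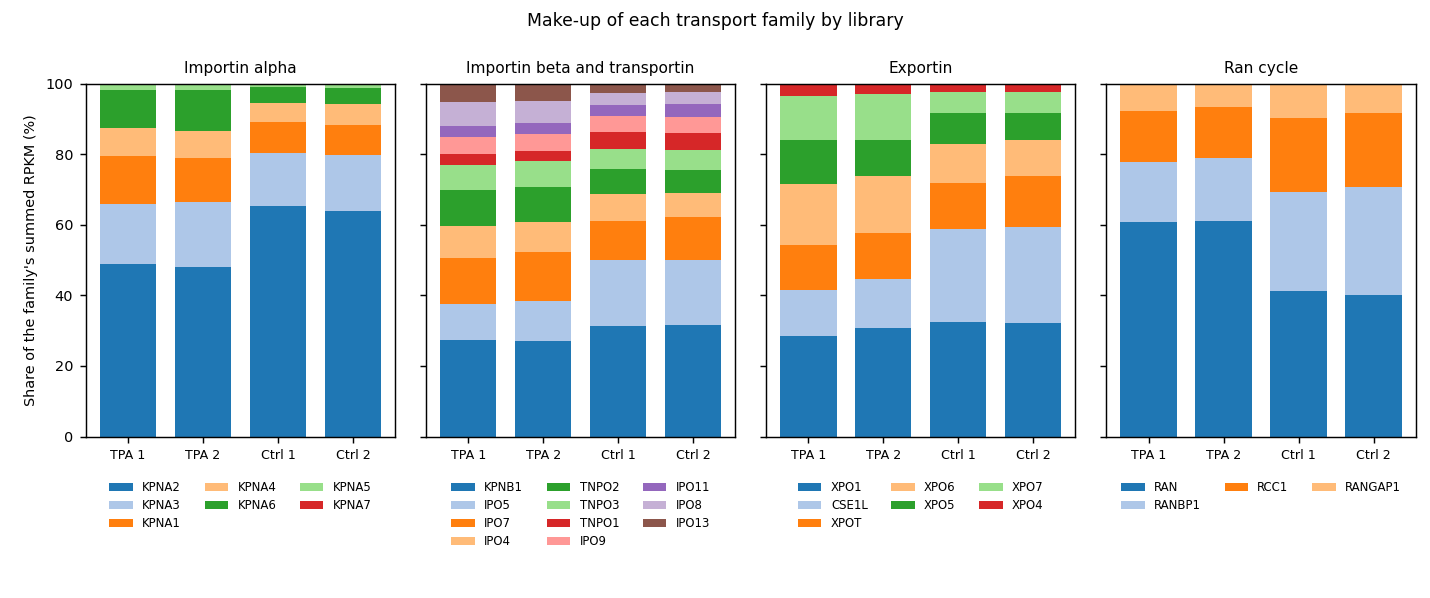
Share of each gene in the summed RPKM of its receptor family or of the Ran cycle, in percent, in each library. KPNA2, CSE1L and RANBP1 hold smaller shares in TPA libraries, and KPNA6, XPO7 and RAN hold larger ones.

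Importin alpha proteins are adaptors that bind the classical nuclear localisation signal and hand it to importin beta. Of 6 tested genes 3 fell, 1 rose and 2 did not pass (median log2 fold change -0.37). Of all genes tested, 29.8% fell and 28.4% rose. KPNA2, the adaptor typical of proliferating cells, was the most abundant, with 52.9 and 51.7 RPKM in TPA libraries, against 132 and 132 RPKM in control libraries. It fell with a log2 fold change of -1.32 (SE 0.129, limma adjusted p = 6.92e-05), and the replicates of each group were within 2 RPKM of each other. KPNA3 (log2 fold change -0.67) and KPNA4 (-0.41) also fell. KPNA6 rose, with 11.8 and 12.4 RPKM in TPA libraries, against 8.76 and 9.55 RPKM in control libraries (log2 fold change 0.37, SE 0.130, limma adjusted p = 0.0398). The calls of KPNA6 and KPNA4 were lost without either TPA replicate, with limma adjusted p-values of 0.0658 and 0.103 for KPNA6 and 0.0623 and 0.0626 for KPNA4. Their log2 fold changes stayed between 0.31 and 0.43 for KPNA6 and between -0.47 and -0.35 for KPNA4 whichever library was left out. KPNA1 (log2 fold change -0.33, limma adjusted p = 0.0576) and the low KPNA5 (-0.16, limma adjusted p = 0.314) did not pass. The shares of the family, which were not tested, did not overlap between groups for these genes: KPNA2 held 48.9% and 47.9% of the summed RPKM in TPA libraries, against 65.3% and 64.0% in control libraries. KPNA6 held 10.9% and 11.5% in TPA libraries, against 4.34% and 4.64% in control libraries.

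Of the 11 importin beta and transportin genes, which carry cargo through the pore themselves, 9 fell and 2 did not pass. Their summed level was 259 and 259 RPKM in TPA libraries, against 481 and 508 RPKM in control libraries. IPO5, an importer of ribosomal proteins and histones, had 26.99 and 28.8 RPKM in TPA libraries, against 89.1 and 93.3 RPKM in control libraries. It had the largest fall of the family (log2 fold change -1.67, SE 0.131, limma adjusted p = 2.06e-05). TNPO1, which imports RNA-binding proteins such as hnRNP A1, had 7.94 and 7.24 RPKM in TPA libraries, against 22.8 and 24.4 RPKM in control libraries (log2 fold change -1.52, SE 0.132). KPNB1, importin beta itself and the most abundant of the family, had 70.7 and 70.4 RPKM in TPA libraries, against 151 and 161 RPKM in control libraries (log2 fold change -1.13, SE 0.130). The groups did not overlap in any of these 3 genes. IPO11 (log2 fold change -1.03), IPO9 (-0.74), IPO7 (-0.72), IPO4 (-0.62), TNPO3 (-0.56), an importer of splicing factors rich in serine and arginine, and TNPO2 (-0.38) fell as well. The call of TNPO2 was lost without either TPA replicate (limma adjusted p = 0.072 and 0.0652), while its log2 fold change was between -0.41 and -0.34 whichever library was left out. Without control replicate 2 the log2 fold change of TNPO3 was -0.51. IPO8 and IPO13 did not pass, with log2 fold changes of 0.02 (95% interval -0.29 to 0.32) and 0.04 (95% interval -0.25 to 0.33).

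Among the 7 exportins, 6 fell and 1 did not pass, where 29.8% of all genes tested fell. CSE1L, which returns importin alpha to the cytoplasm after each import round, had the largest fall of all transport genes, with 25.8 and 29.2 RPKM in TPA libraries, against 113 and 130.2 RPKM in control libraries. This was 4.42-fold lower by the group means (log2 fold change -2.10, SE 0.145, limma adjusted p = 1.04e-05) and the 347th largest fall among the 12159 genes. XPO1, the main exporter of proteins with a leucine-rich export signal, had 56.6 and 66.0 RPKM in TPA libraries, against 138 and 155 RPKM in control libraries (log2 fold change -1.24, SE 0.146). XPOT, the tRNA exporter, also fell (log2 fold change -1.18). XPO5, which exports microRNA precursors (-0.66), XPO4 (-0.61) and XPO6, the exporter of actin (-0.45), fell too. Without control replicate 2 the log2 fold changes of XPO4 and XPO6 were -0.54 and -0.42, and without control replicate 1 that of XPO6 was -0.48. XPO7 did not pass, with 24.7 and 28.1 RPKM in TPA libraries and 25.8 and 28.3 RPKM in control libraries (log2 fold change -0.03, 95% interval -0.36 to 0.29). CSE1L held 12.98% and 13.7% of the exportin sum in TPA libraries, against 26.5% and 27.2% in control libraries. XPO7 held 12.4% and 13.2% in TPA libraries, against 6.06% and 5.91% in control libraries.

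**Figure D4:**
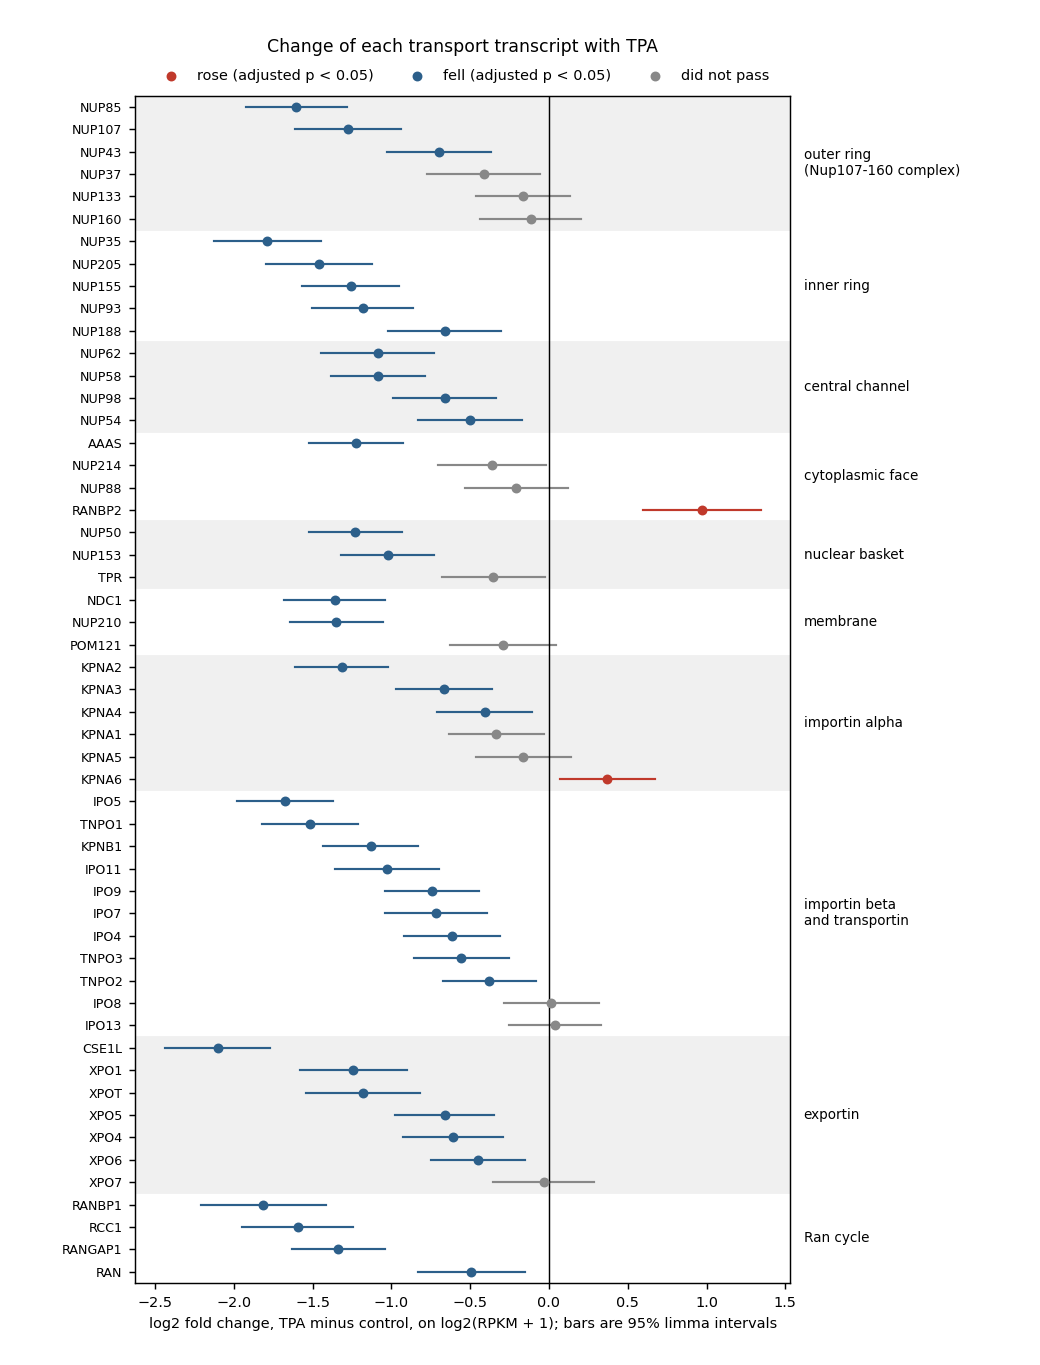
Log2 fold change (TPA minus control, log2(RPKM + 1) scale) of the 53 tested transport genes by role group, with 95% intervals from limma. All 5 inner ring genes, all 4 tested central channel genes and all 4 Ran-cycle genes lie below 0 and passed the test. Among them, RAN, NUP188, NUP62, NUP98 and NUP54 lost the call without the filter on low values. The cytoplasmic face holds changes between -1.22 and 0.97.

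The inner ring, which anchors the channel nucleoporins to the membrane, fell in all 5 of its genes (median log2 fold change -1.26), which summed to 75.6 and 69.2 RPKM in TPA libraries, against 157 and 172 RPKM in control libraries. NUP35 had 3.52 and 3.53 RPKM in TPA libraries, against 13.1 and 16.3 RPKM in control libraries, 4.17-fold lower by the group means (log2 fold change -1.79, SE 0.146, limma adjusted p = 2.62e-05). NUP205, a large scaffold protein, had 12.9 and 11.1 RPKM in TPA libraries, against 32.4 and 37.2 RPKM in control libraries (log2 fold change -1.46). NUP93, the most abundant of the ring, had 22.1 and 24.9 RPKM in TPA libraries, against 51.7 and 57.5 RPKM in control libraries (log2 fold change -1.18). In each of these the lowest control library was above 2 times the highest TPA library. NUP155 (log2 fold change -1.26) and NUP188 (-0.66), the close relative of NUP205, completed the group.

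The outer ring, a Y-shaped scaffold that also sits at kinetochores in mitosis, was split. Of the 6 of its genes that met the symbol rule, 3 fell and 3 did not pass, where 29.8% of all genes tested fell. SEH1L and SEC13 of this ring are outside the rule and are given with the related genes. NUP85 had 9.83 and 10.6 RPKM in TPA libraries, against 30.6 and 35.6 RPKM in control libraries (log2 fold change -1.60, SE 0.139, limma adjusted p = 3.66e-05). NUP107 (log2 fold change -1.28) and NUP43 (-0.70) also fell. NUP160, the most abundant of these 6, overlapped between groups, with 34.8 and 31.9 RPKM in TPA libraries and 33.9 and 38.6 RPKM in control libraries (log2 fold change -0.12, 95% interval -0.44 to 0.21). NUP133 did not pass either (log2 fold change -0.16, 95% interval -0.46 to 0.13). NUP37 was at the edge of the threshold (log2 fold change -0.42, limma adjusted p = 0.0501). Over the alternatives with all 4 libraries its limma adjusted p was between 0.00486 and 0.233. These 6 genes of 1 stable complex had log2 fold changes spread between -1.60 and -0.12.

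All 4 tested genes of the central channel, whose FG repeats form the permeability barrier, fell. NUP62 was the most abundant, with 25.4 and 32.4 RPKM in TPA libraries, against 60.1 and 64.2 RPKM in control libraries (log2 fold change -1.09, SE 0.156, limma adjusted p = 0.000558). Its channel partners NUP58 and NUP54 had log2 fold changes of -1.08 and -0.50, and the call of NUP54 was lost without TPA replicate 1 (log2 fold change -0.41, limma adjusted p = 0.0732). Without control replicate 2 the log2 fold change of NUP54 was -0.40. NUP98, a mobile FG nucleoporin known as a fusion partner in leukaemia, had 17.7 and 14.8 RPKM in TPA libraries, against 25.8 and 26.6 RPKM in control libraries (log2 fold change -0.66, SE 0.141). Without the filter on low values 1 of the 4 fell (NUP58), and NUP62, NUP98 and NUP54 had limma adjusted p-values of 0.0505, 0.0604 and 0.107. NUP62CL, a relative of NUP62, was listed at 0 in all 4 libraries.

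The cytoplasmic face held the largest rise. RANBP2, the giant nucleoporin of the cytoplasmic filaments that holds SUMO-modified RANGAP1 at the pore, had 16.8 and 12.5 RPKM in TPA libraries, against 7.04 and 6.76 RPKM in control libraries. It rose 2.12-fold by the group means (log2 fold change 0.97, SE 0.161, limma adjusted p = 0.00127), a call lost without the filter on low values (limma adjusted p = 0.0722). Both TPA libraries were above both control libraries, although the TPA libraries differed from each other by more than the control libraries did. The ratio of RANBP2 to RANGAP1, a pair chosen after its values were seen, was 1.09 and 0.851 in TPA libraries, against 0.179 and 0.170 in control libraries. RANBP2 has near-identical copies, and the RGPD genes in the table (RGPD1 to RGPD6 and RGPD8) had at most 0.118 RPKM in any library, and how reads shared with them were counted is not given in the sources used here. AAAS, the pore protein ALADIN, fell (log2 fold change -1.22, limma adjusted p = 0.000107). NUP88 did not pass, with 39.2 and 44.5 RPKM in TPA libraries, against 45.7 and 51.1 RPKM in control libraries (log2 fold change -0.21, 95% interval -0.53 to 0.12). Its partner NUP214 did not pass either (log2 fold change -0.36, limma adjusted p = 0.0672), although it passed without TPA replicate 1 (limma adjusted p = 0.0479).

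In the nuclear basket, the filaments on the inner side of the pore, 2 of 3 genes fell. NUP153 had 18.4 and 17.9 RPKM in TPA libraries, against 37.0 and 38.9 RPKM in control libraries (log2 fold change -1.02, SE 0.129, limma adjusted p = 0.000276). NUP50, which binds importin alpha and speeds cargo release, had a log2 fold change of -1.23. TPR, the coiled-coil protein that forms the filaments, had 25.6 and 21.6 RPKM in TPA libraries, against 29.6 and 31.1 RPKM in control libraries and did not pass (log2 fold change -0.35, limma adjusted p = 0.0621), although it passed without TPA replicate 1 (limma adjusted p = 0.036). Of the membrane nucleoporins, NUP210 had 23.1 and 23.7 RPKM in TPA libraries, against 62.3 and 60.1 RPKM in control libraries (log2 fold change -1.35, SE 0.128). NDC1, which spans the membrane and helps to insert new pores, had 14.2 and 12.7 RPKM in TPA libraries, against 34.1 and 38.2 RPKM in control libraries (log2 fold change -1.36). Both fell, with no overlap between groups. POM121 did not pass (log2 fold change -0.29, limma adjusted p = 0.117), and its near copy POM121C had 6.38 and 5.64 RPKM in TPA libraries and 7.40 and 5.78 RPKM in control libraries. The remaining genes, NUP210L and KPNA7, stayed under 0.1 RPKM in every library and were not tested.

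Related genes outside the symbol rule were read from the same fit. Of 17 tested genes of a list of other pore and Ran-pathway genes, 7 fell and 10 did not pass (median log2 fold change -0.23), where 29.8% of all genes tested fell. The number that fell was 3 without the filter on low values, and also 3 at an adjusted p of 0.01. SEH1L, an outer ring gene, had 29.5 and 33.3 RPKM in TPA libraries, against 60.7 and 67.4 RPKM in control libraries (log2 fold change -1.01). SEC13, also of that ring, did not pass (log2 fold change -0.23). AHCTF1 (ELYS), which seeds pores on chromatin, had 4.78 and 4.14 RPKM in TPA libraries, against 9.002 and 9.24 RPKM in control libraries (log2 fold change -0.89). Of 18 tested mRNA export genes, 9 fell and 9 did not pass (median log2 fold change -0.39), against the same 29.8% of all genes tested. The number that fell was 6 without TPA replicate 1 and 3 without the filter on low values. The export adaptor ALYREF had 42.6 and 43.1 RPKM in TPA libraries, against 161 and 174 RPKM in control libraries (log2 fold change -1.94). The helicase DDX39A had 27.8 and 26.5 RPKM in TPA libraries, against 103 and 107 RPKM in control libraries (log2 fold change -1.92).

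Strand use and the counting of overlapping genes are not given in the sources used here. By their gene spans in RefSeq, 14 transport genes overlap another gene with a mean of at least 1 RPKM. Of these 11 fell, 1 rose and 2 did not pass, and of the 39 others 28 fell and 1 rose. The part of these overlaps in single values was not tested. RCC1 shares its span with SNHG3, which had 25.7 and 24.98 RPKM in TPA libraries, against 32.1 and 36.9 RPKM in control libraries. NUP62 lies over ATF5, which had 24.2 and 23.6 RPKM in TPA libraries, against 91.6 and 80.9 RPKM in control libraries. NUP62 also overlaps IL4I1, which was higher in TPA libraries (14.5 and 14.5 RPKM, against 8.35 and 7.41 RPKM in control libraries). RANBP2, which rose, overlaps CCDC138, with a mean of 6.09 RPKM in TPA libraries and 12.7 RPKM in control libraries. It also overlaps SH3RF3, with means of 1.34 and 1.41 RPKM.

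Promoter sequences were read to show what precedes these genes. Of the 56 transport genes, 49 had a RefSeq promoter (build GRCh38.p14, 250 bases before to 50 after the start), and each motif was searched on both strands. The cell-cycle homology region TTTGAA was in 11 of the 49 (22.4%) and in 10 of the 35 that fell (28.6%), against 9.85% of the promoters of all genes tested, 11.7% of all that fell and 15.4% of all 27305 promoters in the RefSeq table. The E-box CACGTG was in 7 of the 49 (14.3%) and in 7 of the 35 that fell (20%). It was in 10.4% of the promoters of all genes tested, 12.4% of all that fell and 7.43% of all promoters. The NRF1 core GCGCATGC was in 5 (10.2%), against 5.86% of all genes tested and 3.27% of all promoters. All 5 were among the 35 that fell, and 5.65% of all genes that fell hold it. The box CCAAT was in 22 (44.9%), against 37.5% of all genes tested and 35.7% of all promoters. It was in 15 of the 35 that fell (42.9%), against 40.6% of all that fell, and in 4 of the 10 that did not pass. The cAMP response element TGACGTCA was in 3 (6.12%), against 3.33% of all genes tested and 1.98% of all promoters. None of these 3 was among the 35 that fell, and 2 were among the 10 that did not pass. Of the E2F cores TTTCCCGC was in none and TTTGGCGC in 1 (NUP155, 2.04%), where 3.95% of the promoters of all genes tested, 2.31% of all promoters and 6.11% of those of all genes that fell hold either. No motif searched contains another. A match is a run of letters and not a bound site. Shown are the promoters of the largest matched falls (CSE1L, NUP35), of the most abundant importin alpha gene (KPNA2) and of the genes that rose (RANBP2, KPNA6). Motifs are in capitals, and a match on the reverse strand appears as its reverse complement.
CSE1L: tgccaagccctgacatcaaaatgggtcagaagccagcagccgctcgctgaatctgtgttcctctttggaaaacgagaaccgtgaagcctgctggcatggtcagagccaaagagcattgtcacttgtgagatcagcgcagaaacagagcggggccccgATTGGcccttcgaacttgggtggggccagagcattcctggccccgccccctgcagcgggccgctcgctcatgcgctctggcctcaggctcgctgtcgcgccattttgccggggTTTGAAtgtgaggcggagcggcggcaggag
NUP35: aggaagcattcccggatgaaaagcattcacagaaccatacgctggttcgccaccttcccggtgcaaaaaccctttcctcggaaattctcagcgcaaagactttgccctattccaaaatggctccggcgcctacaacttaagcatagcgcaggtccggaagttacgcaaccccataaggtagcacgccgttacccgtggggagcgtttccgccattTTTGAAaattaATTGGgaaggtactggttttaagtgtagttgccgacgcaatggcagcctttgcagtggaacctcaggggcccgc
KPNA2: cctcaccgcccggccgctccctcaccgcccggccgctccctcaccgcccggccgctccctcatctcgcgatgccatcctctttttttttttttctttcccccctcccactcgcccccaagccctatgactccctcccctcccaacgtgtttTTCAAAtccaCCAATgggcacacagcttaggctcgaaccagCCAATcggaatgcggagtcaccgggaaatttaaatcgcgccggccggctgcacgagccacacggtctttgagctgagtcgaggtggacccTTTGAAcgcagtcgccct
RANBP2: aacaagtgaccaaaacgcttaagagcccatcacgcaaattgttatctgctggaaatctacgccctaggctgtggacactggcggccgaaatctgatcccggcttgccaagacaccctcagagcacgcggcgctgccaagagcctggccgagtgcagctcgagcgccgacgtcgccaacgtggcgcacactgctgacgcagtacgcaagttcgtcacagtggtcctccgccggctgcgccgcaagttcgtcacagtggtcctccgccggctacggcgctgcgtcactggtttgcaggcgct
KPNA6: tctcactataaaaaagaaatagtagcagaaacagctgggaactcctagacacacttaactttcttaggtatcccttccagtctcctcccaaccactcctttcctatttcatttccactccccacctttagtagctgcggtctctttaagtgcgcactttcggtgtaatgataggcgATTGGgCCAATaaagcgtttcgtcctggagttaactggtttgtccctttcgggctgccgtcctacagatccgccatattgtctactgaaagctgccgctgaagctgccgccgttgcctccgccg
All are on the plus strand of GRCh38.p14, at chr20:49046062-49046361 (CSE1L), chr2:183124193-183124492 (NUP35), chr17:68035485-68035784 (KPNA2), chr2:108719232-108719531 (RANBP2) and chr1:32107806-32108105 (KPNA6). CSE1L, NUP35 and KPNA2 each hold both TTTGAA and the box CCAAT, KPNA6 holds CCAAT on each strand, and none of the letters searched was found in the RANBP2 window.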

How the data were processed

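RNA-seq values of 4 libraries (2 TPA, 2 control) were analysed, grouped by the titles in the labels. The authors deposited RPKM values per gene, per the file headers, made on hg19 with HOMER, TopHat, SAMtools, Bowtie 1.12 and CASAVA 1.8, per the submitters' processing notes, which give no role or order. No count test was used on them, and the absolute depth is unknown, so no counting interval is given. The 12159 of 27142 genes that reached 1 RPKM in 2 or more libraries were transformed to log2(RPKM + 1), which understates the change of low genes, and fitted with limma 3.58.1 in R 4.3.3 (moderated with a trend on the mean, 5.88 prior and 2 residual degrees of freedom, no replicate block). P-values are two-sided, adjusted by Benjamini-Hochberg over all genes tested. An exact permutation test of 2 against 2 libraries cannot give a p under 0.333. The members, role groups, lists and motifs were chosen with earlier results of these data known. Among the transport genes, per-library values are given for 14 preset genes, the 10 largest falls, the rises, the most abundant gene of each role group and XPO7. Of each pathway list they are given for the 2 genes with the smallest p among those that fell, as no gene of these lists rose. Overlaps, promoters and motif shares are descriptions, with no test. In all, 14 alternatives were run: pseudocounts of 0.1 and 0.5, no filter, a filter of 5 RPKM, median-of-ratios and quantile scaling, no trend, an adjusted p of 0.01, protein-coding genes only, a replicate block, and each library left out. ChIP-seq and input libraries were not used here.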

Additional observations from a re-analysis of the deposited data

How the results depend on the processing

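Of the 53 tested genes, 31 kept their direction and their side of the threshold in all 14 alternatives and 1 (KPNA5) in the 13 that could be run on it, as it is below the filter of 5 RPKM; 13 lost a call in at least 1, 5 gained one and 3 changed sign. These counts include the fits without a control library, whose calls cannot be set against the others. The number that fell (39) was 31 to 44 over the alternatives with all 4 libraries. It was lowest without the filter on low values and highest with a replicate block. The number of all genes that fell was also lowest and highest in these fits. Without the filter on low values, 2097 of 27142 genes fell in all, against 3621 of 12159 in the main fit, and fewer genes rose too. None of the transport genes rose (so 0 on the cytoplasmic face and 0 among importin alpha genes). In the same fit 1 central channel, 3 other pore and Ran-pathway and 3 mRNA export genes fell. RANBP2 then had a limma adjusted p of 0.0722 (range 0.000277 to 0.0722 over the 12 alternatives that keep both control libraries). The calls of RAN, NUP62, NUP98, NUP54, XPO4, KPNA4, KPNA6, NUP188 and NUP43 were lost there too. Quantile normalization gave a median of -0.605 and turned XPO7 to 0.0528 and NUP160 to 0.0153, neither past the threshold. At an adjusted p of 0.01, 1 transport gene rose, none (0) of importin alpha, and 3 other pore genes fell.

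With 1 library left out, the number that rose was 1 each time and 0 for importin alpha, the median -0.774 to -0.65, the cytoplasmic face genes that fell 1 to 2, and the other pore genes that fell 3 to 7. The log2 fold change of IPO8 was -0.0394 to 0.0702 (-0.0158 without control replicate 1) and that of XPO7 -0.124 to 0.0554 (0.0314 without control replicate 2). Leaving out a control library gives infinite prior degrees of freedom, so p-values and counts of calls from it cannot be set against the others. Replicate numbers do not pair the libraries by their labels; the differences between replicates 1 and 2 correlated across genes with r = 0.361. With a replicate block 2 transport genes rose, 44 fell, and 2 of the cytoplasmic face fell. Among all 12159 genes tested, more also fell and more rose with the block than in the main fit (3621 and 3454). Whether the added falls of transport genes went beyond this general gain in calls was not tested. The causes were not tested.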
